A study of Rattus norvegicus with 10 samples.

Results

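The set comprised 10 rat genes: the transcription factor gene Atf4, 4 genes known as its targets (Asns, Chac1, Trib3 and Ddit3) and 5 cytosolic aminoacyl-tRNA synthetase genes (Aars1, Gars1, Nars1, Sars1 and Wars1). They were taken by symbol, through the RefSeq accession printed for each array probe. Of the 10 genes, 8 had a named probe, with 11 probes in all among the 17502 named probes of the array. Trib3 and Gars1 had no named probe and are not analysed here. All 8 genes passed the filter on dim probes, through 10 of their 11 probes, and were tested with the other genes of the array, 6861 in all.

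Gene expression was measured in liver RNA of 5 DEN/TAA rats and 5 control rats, all male Wistar, with 1 single-colour Agilent array per rat. DEN/TAA rats were injected once with diethylnitrosamine (DEN), a DNA-alkylating liver carcinogen, at 200 mg/kg and 6 weeks of age. Beginning 2 weeks later they were given thioacetamide (TAA), a toxin activated by hepatocytes that scars the liver, at 200 mg/kg, 2 times a week in cycles of 3 weeks with and 1 week without injections. The control rats were given vehicle, and the labels give an age of 23 weeks for all rats but also a treatment lasting 23 weeks, so its duration is not settled here. The labels number the replicates, and each array was taken as 1 rat.

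ATF4 is translated when the initiation factor eIF2 is phosphorylated on its alpha subunit, which happens under amino acid shortage, stress of the endoplasmic reticulum, lack of heme or viral RNA. Its level is therefore set largely at translation, and its messenger RNA need not follow its activity. ATF4 binds composite C/EBP-ATF elements and switches on genes of amino acid synthesis, amino acid uptake and tRNA charging, together with stress genes such as Ddit3, which encodes CHOP. Aminoacyl-tRNA synthetases each join an amino acid to its tRNAs, and every translating cell needs all of them.

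Promoter sequences are shown for the 3 measured genes whose promoter held the core letters of such an element, because these genes did not move in the same direction. The motif searched was TGATGNAA, on both strands, in RefSeq promoters of the GRCr8 assembly that run from 250 bases before to 50 bases after the start of each gene. Capitals mark the motif or its reverse complement. Chac1 lay at chr3:126795881-126796180 on the plus strand, Aars1 at chr19:55908232-55908531 on the plus strand and Nars1 at chr18:60275733-60276032 on the minus strand.
Chac1: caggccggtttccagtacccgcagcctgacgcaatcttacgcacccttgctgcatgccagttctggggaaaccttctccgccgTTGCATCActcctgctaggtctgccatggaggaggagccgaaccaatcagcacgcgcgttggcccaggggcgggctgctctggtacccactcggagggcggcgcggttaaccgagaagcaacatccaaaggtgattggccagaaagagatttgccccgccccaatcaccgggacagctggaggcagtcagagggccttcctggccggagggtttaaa
Aars1: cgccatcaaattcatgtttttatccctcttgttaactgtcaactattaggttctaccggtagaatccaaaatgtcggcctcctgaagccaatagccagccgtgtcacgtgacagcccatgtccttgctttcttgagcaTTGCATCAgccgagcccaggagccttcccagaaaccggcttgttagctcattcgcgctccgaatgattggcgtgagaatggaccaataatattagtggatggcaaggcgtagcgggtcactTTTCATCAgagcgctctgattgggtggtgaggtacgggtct
Nars1: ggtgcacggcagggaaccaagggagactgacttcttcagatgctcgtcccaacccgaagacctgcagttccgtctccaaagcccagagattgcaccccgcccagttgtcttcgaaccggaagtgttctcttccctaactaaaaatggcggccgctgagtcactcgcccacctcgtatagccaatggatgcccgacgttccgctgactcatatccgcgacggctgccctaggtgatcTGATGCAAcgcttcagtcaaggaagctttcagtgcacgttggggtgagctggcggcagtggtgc

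Of the 9 genes with a promoter in the RefSeq table, 4 held TGATGNAA: Chac1, Aars1, Nars1 and the unmeasured Trib3. The motif stood in 3.98% of all 33469 promoters of that length and in 2.25% of the 5960 that belonged to tested genes. It began 167 bases before the start in Chac1 and 14 bases before it in Nars1, while Aars1 held a match 112 bases before the start and another that began just after it. The promoter windows of Asns, Atf4, Ddit3, Sars1 and Wars1 held no match. The cyclic AMP response element TGACGTCA, which shares no placement with TGATGNAA because their letters differ, was in none of the 9 windows and in 1.83% of all promoters. These matches describe letters, and binding was not measured.

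The values below are log2 processed signals after subtraction of the array's 75th percentile over detected probes, so 0 is the level of a fairly bright probe, and a negative value a dimmer one. They serve to compare rats for 1 probe, not probes with each other. Control arrays were dimmer: 16.4% to 32.4% of their spots were well above background, against 35.5% to 45.5% in DEN/TAA, and control replicate 5 had the lowest share. The median log2 difference over all genes tested was 0.32 (DEN/TAA minus control), and other scalings moved this median by between -0.60 and 0.66, so the difference of each gene of the set is also given relative to it. Across all genes, 55.2% passed the threshold, 38.9% as higher in DEN/TAA and 16.3% as lower. Of the 8 measured genes, 3 were called higher and 2 lower by limma (adjusted p under 0.05 over all 6861 genes), a share of 62.5% that is near the background. Their median difference was 0.42. The genes below therefore differ from each other in direction and size, and as a group they did not move in a single direction.

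All 12 markers of hepatocytes were above background on all 10 arrays, as the label liver implies. Of them, 10 were lower in DEN/TAA and 0 higher, and their summed signal (linear, in units of the array's percentile level) was 202 to 254 in DEN/TAA and 377 to 604 in control. Most tested markers of other cells were called higher, with summed signals of 8.40 to 11.4 in DEN/TAA and 3.02 to 5.46 in control for 11 macrophage markers (9 higher, 1 lower). The 4 measured bile duct and ductular markers, all called higher, summed to 0.94 to 1.36 in DEN/TAA and 0.13 to 0.22 in control, with Krt19 above background on no control array. The 10 markers of stellate cells and myofibroblasts (7 higher, 0 lower) summed to 4.05 to 6.20 in DEN/TAA and 1.19 to 1.60 in control. Of 4 endothelial markers 3 were higher, with sums of 1.52 to 2.03 in DEN/TAA and 1.07 to 2.22 in control, and of 5 T and NK cell markers 3 were called higher. Of those 5, 4 were above background on no control array, as was the single tested B and plasma cell marker, Pou2af1, so they entered the test through DEN/TAA alone and their calls were favoured by the filter. The same held for Krt19 and for 3 of the 11 macrophage markers. In these bulk samples fewer cells of a type and less RNA per cell cannot be told apart, and the part of cell composition in the results below was not tested.

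**Figure D1:**
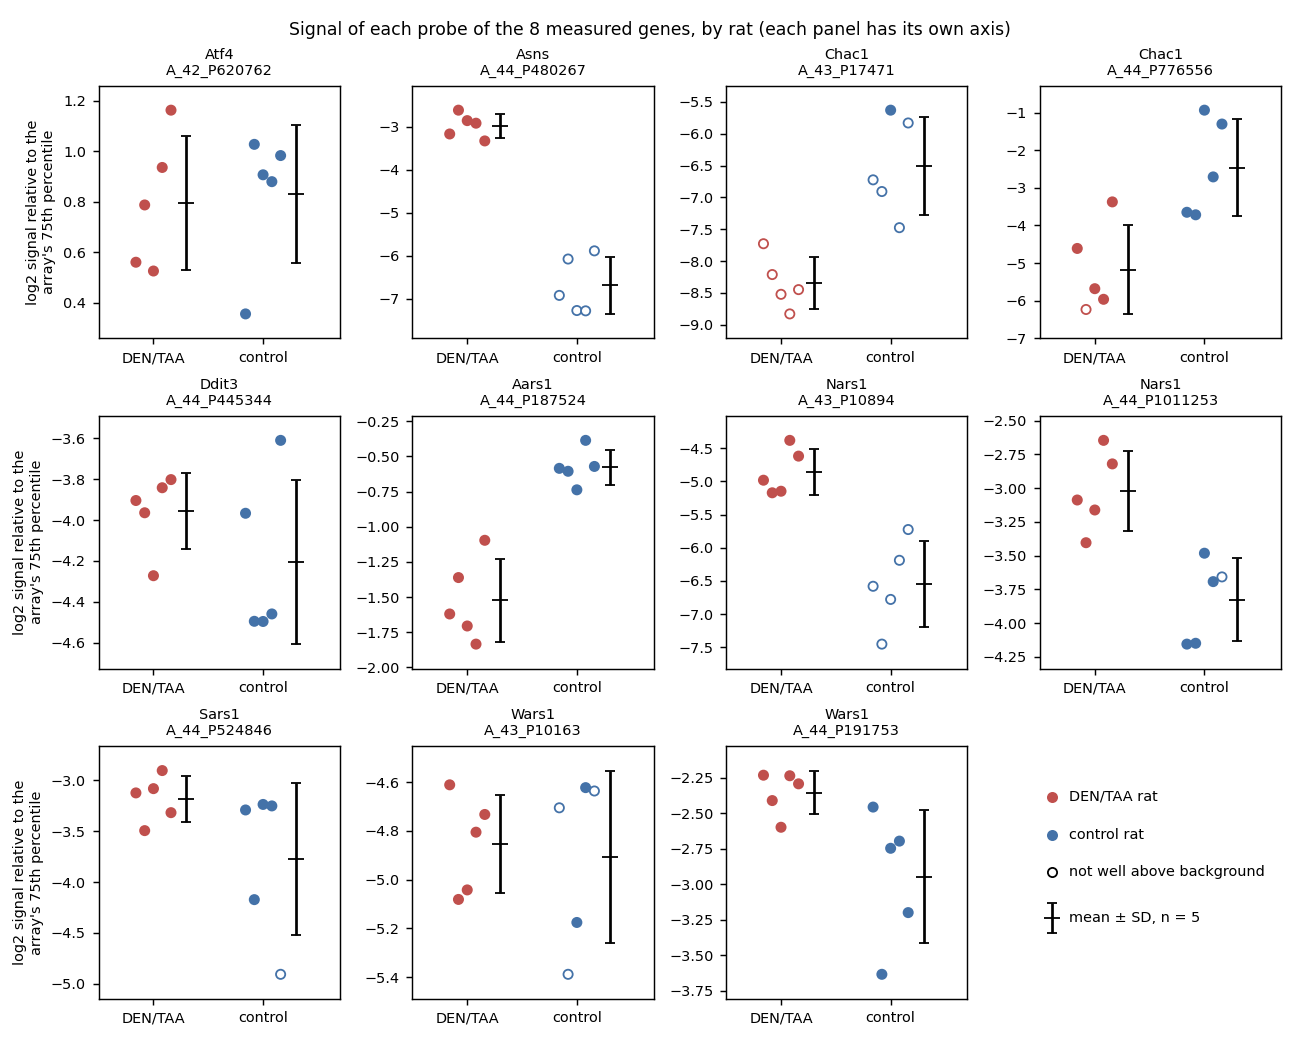
Log2 signal relative to the array's 75th percentile for each of the 11 probes of the 8 measured genes, with DEN/TAA rats left and control rats right, 5 points each. Open points were not well above background, and bars give the mean and SD. Asns and Aars1 separate the groups in opposite directions, while Atf4 and Ddit3 overlap.

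Atf4 messenger RNA did not differ detectably between the groups. On the scale above, its signal was 0.56, 0.79, 0.53, 0.94 and 1.16 in DEN/TAA rats 1 to 5, against 0.36, 1.03, 0.91, 0.88 and 0.98 in control rats 1 to 5. The groups overlapped over nearly their whole ranges, and control rat 1 lay apart below the other controls. The log2 difference was -0.04 (SE 0.18, 95% interval -0.43 to 0.36, limma adjusted p = 0.881), and -0.36 relative to the median of all genes. Within the 3 slides that each held both groups it was -0.02, -0.18 and 0.23, so its sign was not the same on all slides. Only scaling to the spike-in probes, RNA added equally to each sample, gave a call, as higher by 0.63 (adjusted p = 0.0357), and that scaling raised the median of all genes to 0.99. By the root mean square difference of centred profiles over the 10 arrays, the tested genes most like Atf4 were Ubn1 (0.10), Znhit2 (0.11) and Kdsr (0.13). This measure includes the difference between the groups, so genes near Atf4 had to differ little between them, and none of these passed the threshold.

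Ddit3, which encodes the transcription factor CHOP, a promoter of cell death under prolonged stress, was likewise not called. Its signal was -3.90, -3.96, -4.27, -3.84 and -3.80 in DEN/TAA rats 1 to 5 and -3.97, -4.50, -4.50, -4.46 and -3.61 in control rats 1 to 5. Of the controls, 3 lay below every DEN/TAA rat and 1 above every DEN/TAA rat. The log2 difference was 0.25 (SE 0.20, 95% interval -0.19 to 0.69, limma adjusted p = 0.312), or -0.07 relative to the median of all genes. It was called higher without control replicates 1 and 5, the 2 dimmest arrays (0.53, adjusted p = 0.0152), and with spike-in scaling (0.91, adjusted p = 0.00465), while it was below 0 under 3 other scalings.

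Chac1, a gamma-glutamylcyclotransferase that breaks down glutathione and is among the genes switched on through ATF4, was lower in DEN/TAA. Its brighter probe read -4.61, -6.24, -5.68, -5.97 and -3.37 in DEN/TAA rats 1 to 5, against -3.65, -3.72, -0.93, -2.71 and -1.30 in control rats 1 to 5. It was well above background in every control rat and in 4 of 5 DEN/TAA rats. DEN/TAA rat 5 lay above control rats 1 and 2, so the groups overlapped, and the spread within each was wide (SD 1.18 in DEN/TAA and 1.30 in control). Chac1 fell by 2.71 on the log2 scale (SE 0.66, limma adjusted p = 0.00467), or by 3.03 relative to the median of all genes. Each slide was scanned as 1 batch, and the size varied by slide, at -1.74 on slide 1, -4.89 on slide 2 and -1.37 on slide 3. The dimmer probe, above background in 0 of 5 DEN/TAA rats and 1 of 5 control rats, was not tested, and its mean signal was -8.35 in DEN/TAA and -6.51 in control. Chac1 stayed past the threshold in all 23 alternatives that tested it.

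Asns, asparagine synthetase, which makes asparagine from aspartate with glutamine as nitrogen donor, was higher in DEN/TAA, with the largest fitted difference of the set in the main scaling. With normexp and in the authors' table Chac1 differed by more, at -2.14 and -1.25 against 1.41 and 1.23 for Asns. It read -3.17, -2.61, -2.86, -2.92 and -3.33 in DEN/TAA rats 1 to 5, all well above background. In control rats 1 to 5 it read -6.92, -6.08, -7.27, -7.28 and -5.89, none of them well above background. The groups were far apart, and each of the 5 DEN/TAA rats lay above all control rats. Because control liver gave only a bound, Asns was at least 7.40-fold higher in DEN/TAA in the main scaling. This bound compares the DEN/TAA mean with the mean, over the control arrays, of the higher of the array's detection floor and the probe's own signal. The measured means were -2.98 ± 0.28 in DEN/TAA and -6.69 ± 0.66 in control (SD, n = 5 each), a fitted difference of 3.71 (SE 0.29, limma adjusted p = 2.18e-06), or 3.39 relative to the median of all genes. Within slides the difference was 3.61, 4.39 and 3.25. It stayed past the threshold in all 23 alternatives that tested it, at 1.23 to 4.37, the low end coming from the authors' table. Asns entered the test through DEN/TAA alone, so its call was favoured by the filter. The filter on all 10 arrays left it out.

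The genes with the profile most like Asns over the 10 arrays were Acsm2 (root mean square difference of centred log2 values 0.32), Dcdc2 (0.32) and Dynlt1 (0.35). The measure includes the difference between the groups, so genes near Asns had to be higher in DEN/TAA. Above background were 3 of 5 control arrays for Acsm2, 4 of 5 for Dynlt1 and none for Dcdc2.

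The 4 measured synthetases of the set did not move together. Aars1, the alanyl-tRNA synthetase, was lower, Nars1 (asparaginyl) and Wars1 (tryptophanyl) were higher, and Sars1 (seryl) did not pass the threshold.

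Aars1 read -1.62, -1.36, -1.71, -1.83 and -1.10 in DEN/TAA rats 1 to 5, against -0.58, -0.61, -0.74, -0.39 and -0.57 in control rats 1 to 5. The groups did not overlap, which held for 39.2% of all genes tested (11.4% as lower), and the probe was well above background on every array. Aars1 fell by 0.95 on the log2 scale (SE 0.17, limma adjusted p = 0.000547), to 0.52 times the control level, or by 1.27 relative to the median of all genes. It differed in the same direction on each slide, at -0.90, -1.03 and -0.62. The call ended with spike-in scaling alone (-0.28, adjusted p = 0.353). Hepatocyte markers were lower in the same rats, with a median of -1.03.

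Nars1 had 2 probes, and both were higher. The brighter probe read -3.09, -3.40, -3.16, -2.65 and -2.82 in DEN/TAA rats 1 to 5, against -4.16, -4.15, -3.48, -3.69 and -3.66 in control rats 1 to 5. The groups did not overlap, as for 27.8% of all genes in the higher direction, although the lowest DEN/TAA rat and the highest control rat were close, and control rat 5 was not well above background. The log2 difference was 0.80 (SE 0.20, limma adjusted p = 0.00465), or 0.48 relative to the median of all genes. The other probe was above background in all 5 DEN/TAA rats and in no control rat. In the main scaling it was at least 1.87-fold higher (fitted difference 1.68, limma adjusted p = 0.000806 over all probes tested). That probe passed the filter through DEN/TAA alone, which favoured its call. The call for the brighter probe ended under 3 scalings: quantile normalisation (0.47, adjusted p = 0.0750), the percentile over all probes (0.50, adjusted p = 0.0693) and normexp (0.13, adjusted p = 0.685). It held in the authors' table (0.34, adjusted p = 0.0179).

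Wars1, whose transcript is known to be raised by interferon-gamma in human and mouse cells, rested on 1 of 2 probes. The brighter probe read -2.23, -2.41, -2.60, -2.24 and -2.29 in DEN/TAA rats 1 to 5 and -2.46, -3.64, -2.75, -2.70 and -3.20 in control rats 1 to 5. All but control rat 1 lay below every DEN/TAA rat. The log2 difference was 0.59 (SE 0.22, limma adjusted p = 0.0359), or 0.27 relative to the median of all genes. The dimmer probe gave 0.05 (SE 0.20, adjusted p = 0.850), with 2 of 5 control rats above background. The call for Wars1 held in 11 of 24 alternatives, and it was lost, for example, with slide as a block (0.59, adjusted p = 0.0559), in the authors' table (0.24, adjusted p = 0.140) and without control replicate 2 (0.42, adjusted p = 0.0725).

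Sars1 read -3.13, -3.50, -3.08, -2.91 and -3.32 in DEN/TAA rats 1 to 5, against -3.29, -4.17, -3.24, -3.25 and -4.91 in control rats 1 to 5. The upper 3 controls lay among the DEN/TAA rats, and control rat 5, the lowest, was not well above background. The log2 difference was 0.59 (SE 0.31, 95% interval -0.10 to 1.27, limma adjusted p = 0.130), or 0.26 relative to the median of all genes, close to that of Wars1 but with a wider spread between control rats. It was called only with spike-in scaling (1.25, adjusted p = 0.0140), and it was below 0 with normexp. Without control replicate 5 the difference was 0.30.

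**Figure D2:**
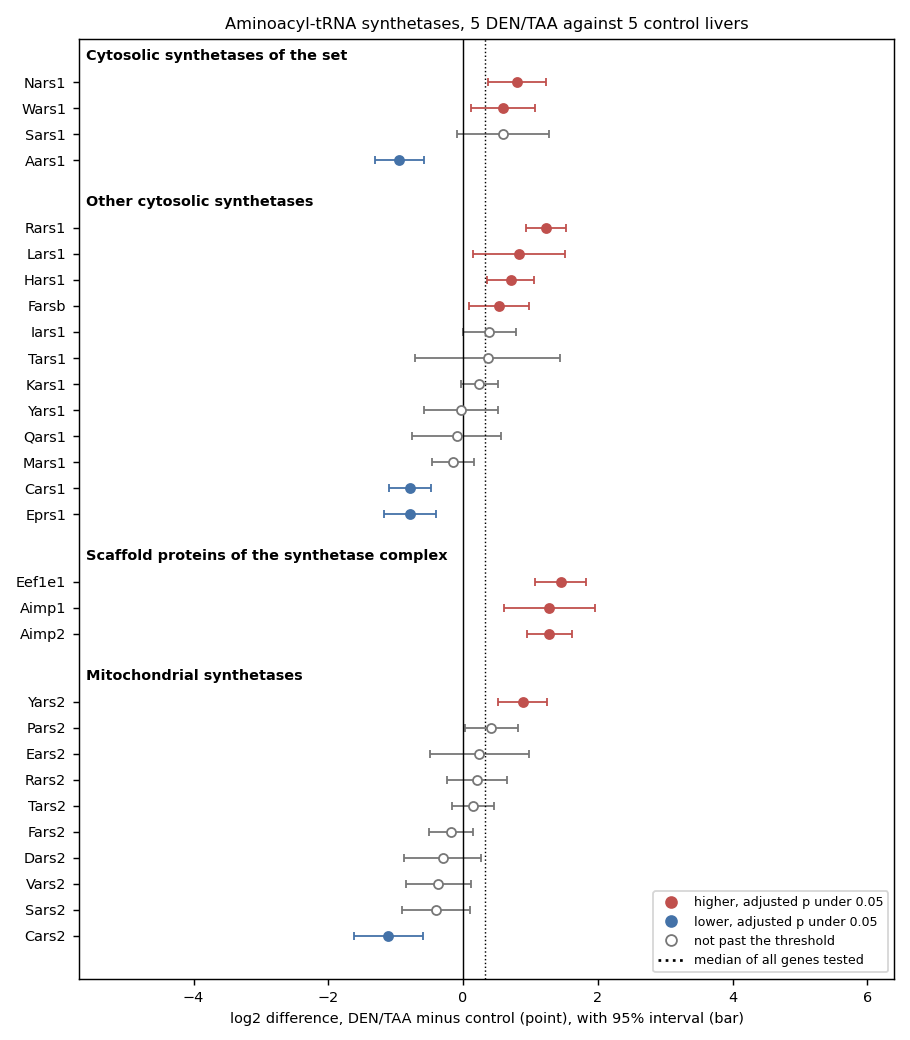
Log2 differences (DEN/TAA minus control) with 95% intervals for the tested cytosolic synthetases, the scaffold proteins and the mitochondrial synthetases, 5 rats per group. Most synthetases lie within 1 log2 unit of 0 on either side, Aars1, Cars1, Eprs1 and Cars2 are called lower, and the 3 scaffold proteins lie between 1.28 and 1.45.

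The other cytosolic synthetases showed the same mixture. Of 16 listed, 12 were tested, of which 4 were higher and 2 lower, 50% against the 55.2% of all genes, with a median difference of 0.30. Rars1, the arginyl-tRNA synthetase, read -0.93, -0.78, -1.25, -0.97 and -0.96 in DEN/TAA rats 1 to 5 and -2.06, -2.28, -2.26, -2.14 and -2.33 in control rats 1 to 5. It rose by 1.24 (SE 0.14, limma adjusted p = 2.29e-05) and was past the threshold in all 24 alternatives. Hars1 (histidyl), Lars1 (leucyl) and Farsb, a subunit of the phenylalanyl enzyme, rose by 0.70, 0.83 and 0.53 (adjusted p = 0.00280, 0.0393 and 0.0442). The calls for Lars1 and Farsb held in 12 and 8 of 23 alternatives, and both were below 0 with normexp. Without control replicate 5 Lars1 differed by 0.49, still past the threshold.

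Cars1 (cysteinyl) and Eprs1, which joins the glutamyl and prolyl activities in 1 protein, fell by 0.79 each (adjusted p = 0.000637 and 0.00289), without overlap between the groups. Eprs1 read 0.07 to 0.58 in DEN/TAA and 0.91 to 1.62 in control, and Cars1 -3.80 to -3.41 in DEN/TAA and -2.97 to -2.59 in control. As for Aars1, both calls ended with spike-in scaling, at -0.12 for each.

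The 3 scaffold proteins that hold several synthetases in the multi-synthetase complex were all higher, as were 38.9% of all genes tested. Eef1e1, Aimp1 and Aimp2 rose by 1.45, 1.28 and 1.28 (limma adjusted p = 3.68e-05, 0.00440 and 3.94e-05), and all 3 were past the threshold in every alternative that tested them, including each scaling. Aimp1 and Eef1e1 were above background on 4 of 5 control arrays. For Aimp1 the groups overlapped, with DEN/TAA rat 5 at -2.29 and control rat 3 at -2.12. Its other probe rose by 0.86 (limma adjusted p = 0.000843 over all probes tested). Enzymes of the same complex differed in direction: Eprs1 was lower, Rars1 and Lars1 were higher, and Iars1, Kars1, Mars1 and Qars1 were not called.

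Of 17 mitochondrial synthetases 10 were tested, of which 1 was higher and 1 lower, 20% against the 55.2% of all genes, with a median difference of -0.02. Yars2, the tyrosyl enzyme, rose by 0.88 (adjusted p = 0.000966), above background on 3 of 5 control arrays. Cars2, the mitochondrial cysteinyl enzyme, fell by 1.11 (adjusted p = 0.00199), so that both cysteinyl-tRNA synthetases were lower. These calls ended with normexp for Yars2 and with spike-in scaling for Cars2.

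**Figure D3:**
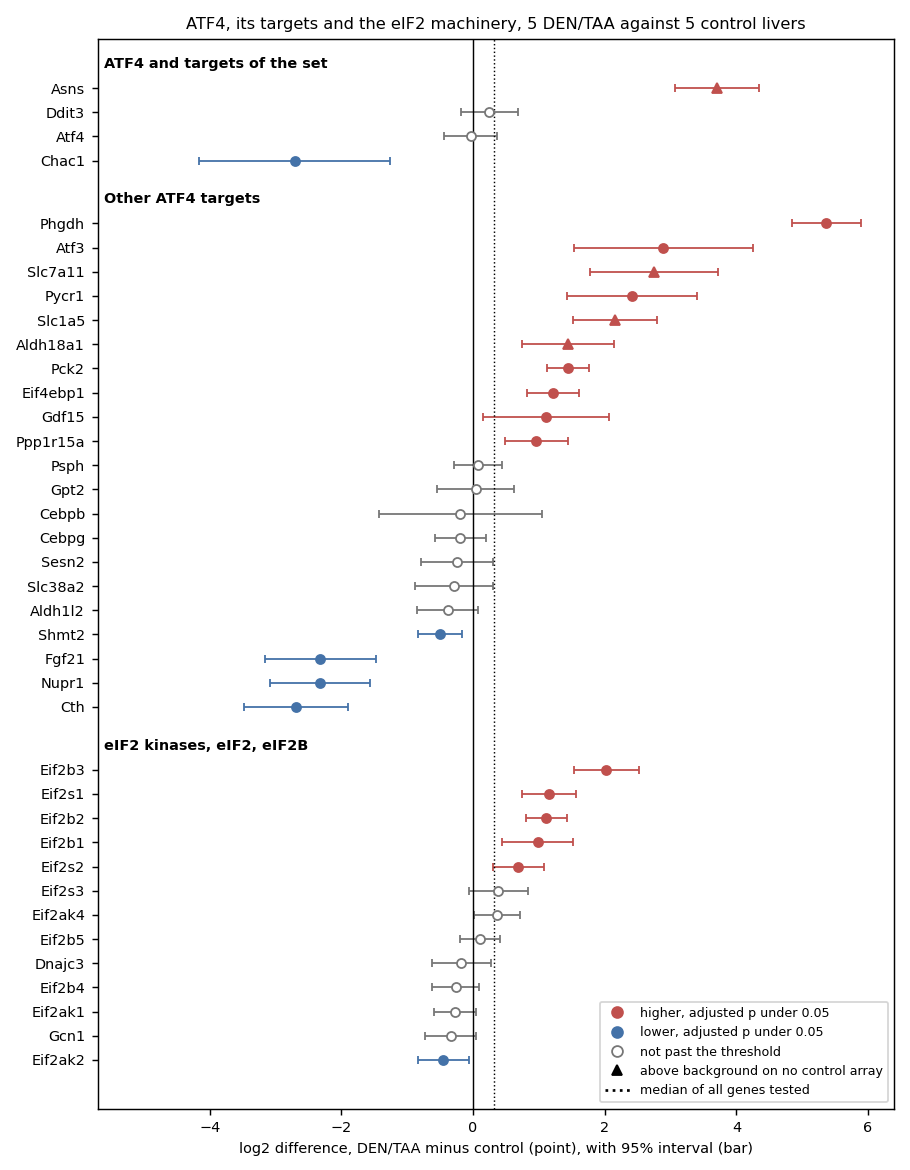
Log2 differences (DEN/TAA minus control) with 95% intervals for Atf4 and its targets in the set, for 21 other ATF4 targets and for 13 genes of eIF2 and its regulation. Triangles mark genes above background on no control array. Targets run from Phgdh at 5.36 to Cth at -2.69, while Atf4 lies at -0.04.

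Other genes known as ATF4 targets were split between directions as Asns and Chac1 were. Of 34 listed, 21 were tested, of which 10 were higher and 4 lower. Of the 21, 3 were above background on no control array and entered the test through DEN/TAA alone. Slc3a2, named after its values were seen, had no unflagged spot for DEN/TAA rat 5 and was not tested. It read 0.17 to 0.28 in DEN/TAA rats 1 to 4 and -1.96 to -1.10 in control rats 1 to 5. The balance of the tested targets turned with normexp (3 higher, 7 lower). With the filter on all 10 arrays, which tested fewer genes, 2 were higher. With no filter 9 were lower, but that setting also tested targets above background on no array, such as Psat1. Over all genes it called 5802 lower, against 1117 in the main setting. The share called, 66.7%, was near the 55.2% of all genes, and the median difference was 0.08, below the 0.32 of all genes.

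Among the enzymes of amino acid synthesis, Phgdh, which commits the glycolytic intermediate 3-phosphoglycerate to serine, had the largest difference. It read -0.35, 0.08, 0.01, 0.02 and 0.26 in DEN/TAA rats 1 to 5 and -6.14, -5.33, -5.45, -4.74 and -5.13 in control rats 1 to 5. The groups were separated by more than 4 log2 units, with 3 of 5 control rats above background. Phgdh rose by 5.36 (SE 0.24, limma adjusted p = 4.30e-08), and by 35.2-fold with undetected control signals raised to the floor. Psat1, which carries the next step of serine synthesis, was above background on 0 of 10 arrays and has no value here, and Psph, the last enzyme of that route, named after its value was seen, was not called (0.08, adjusted p = 0.715). Shmt2, the mitochondrial enzyme that turns serine to glycine, fell by 0.50 (adjusted p = 0.0165), though it read 0.16 with spike-in scaling.

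Pycr1 and Aldh18a1, enzymes of proline synthesis named after their values were seen, were higher. Pycr1 rose by 2.41 (limma adjusted p = 0.000913), above background on 2 of 5 control arrays. Aldh18a1 was at least 1.44-fold higher in the main scaling, with no control array above background (limma adjusted p = 0.00266 for the signals as measured). Aldh18a1 thus entered the test through DEN/TAA alone, and its call was favoured by the filter. With signals raised to the detection floor the call for Aldh18a1 was lost (0.53, adjusted p = 0.405), and its groups overlapped. With normexp Pycr1 was no longer called and Aldh18a1 read -0.71. Pck2, the mitochondrial phosphoenolpyruvate carboxykinase, rose by 1.44 (adjusted p = 1.26e-05), a call that ended with normexp.

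The amino acid carriers Slc7a11, which imports cystine, and Slc1a5, which imports glutamine and other neutral amino acids, were higher. In the main scaling they were at least 3.54-fold and at least 3.04-fold higher (limma adjusted p = 0.000320 and 9.32e-05). Neither was above background on a control array, so both entered the test through DEN/TAA alone and their calls were favoured by the filter. With normexp neither was called (-0.04 and 0.17). Cth, the enzyme that makes cysteine from cystathionine, went the other way. It read -2.11, -2.22, -2.10, -3.15 and -1.48 in DEN/TAA rats 1 to 5 and 0.62, 0.86, 0.82, 0.87 and -0.77 in control rats 1 to 5. Cth fell by 2.69 (SE 0.36, adjusted p = 8.63e-05) without overlap, and was past the threshold in all 24 alternatives.

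Regulators and secreted factors among the targets were also divided. Atf3, a stress-induced repressor, rose by 2.89 (SE 0.62, adjusted p = 0.00221), above background on 2 of 5 control arrays. Ppp1r15a, the phosphatase subunit that restores translation by dephosphorylating eIF2, and Eif4ebp1, an inhibitor of cap-dependent translation, rose by 0.96 and 1.22 (adjusted p = 0.00319 and 0.000169), and the call for Ppp1r15a ended with normexp (0.12, adjusted p = 0.737). Nupr1, a small stress-response chromatin protein, fell by 2.32 (SE 0.35, adjusted p = 0.000178), with all arrays above background. Fgf21, a liver hormone of fasting and amino acid shortage, fell by 2.32 (SE 0.39, adjusted p = 0.000388), above background in 2 of 5 DEN/TAA rats and 4 of 5 control rats. Its call ended in the authors' table (-0.32, adjusted p = 0.0520). Gdf15, a stress hormone that lowers appetite, rose by 1.11 (adjusted p = 0.0483), a call that held in 9 of 24 alternatives. Sesn2, which restrains mTORC1 signalling, was not called (-0.24, adjusted p = 0.431), and Ddit4 was above background in 2 of 5 DEN/TAA rats and no control rat and was not tested.

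Upstream of ATF4, no tested gene for a kinase that phosphorylates eIF2 was called higher in the main scaling, while several subunits of eIF2 and of its exchange factor eIF2B were. Of 16 listed genes 13 were tested, of which 5 were higher and 1 lower, 46.2% against the 55.2% of all genes, with a median difference of 0.37. Eif2ak3, the kinase PERK of the endoplasmic reticulum, was above background on 0 of 10 arrays. Eif2ak4, the kinase GCN2 that senses uncharged tRNA, differed by 0.37 (SE 0.16, adjusted p = 0.0714), and was called higher with slide as a block (0.42, adjusted p = 0.0391), with spike-in scaling and without control replicate 4. Its sign turned with normexp (-0.42) and in the authors' table (-0.02). Eif2ak2, the double-stranded RNA kinase PKR, fell by 0.45 (adjusted p = 0.0480), which held in 8 of 23 alternatives. Eif2b3, Eif2b2 and Eif2b1, subunits of eIF2B, rose by 2.02, 1.11 and 0.98 (adjusted p = 2.48e-05, 6.18e-05 and 0.00526), and Eif2s1, the alpha subunit of eIF2, by 1.16 (adjusted p = 0.000334). The call for Eif2s1 ended with normexp (0.13, adjusted p = 0.720). On the control arrays Eif2b1 passed background in 1 of 5, and it read -0.27 with normexp. Its call also ended with signals raised to the floor (0.61, adjusted p = 0.137), the percentile over all probes (adjusted p = 0.0619) and quantile normalisation (adjusted p = 0.103).

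In the ATF6 and IRE1 arms of the unfolded protein response few genes were called. Of 12 listed genes 9 were tested, 1 was lower and 0 were higher, 11.1% against the 55.2% of all genes, with a median difference of -0.34. At an unadjusted p under 0.05 in limma, 2 of the 9 were lower and 0 higher. Herpud1, a protein of endoplasmic reticulum-associated degradation, fell by 0.93 (adjusted p = 0.00271), a call that ended with spike-in scaling. Hspa5, the chaperone BiP, named after its value was seen, differed by -0.37 (SE 0.23, adjusted p = 0.198).

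**Figure D4:**
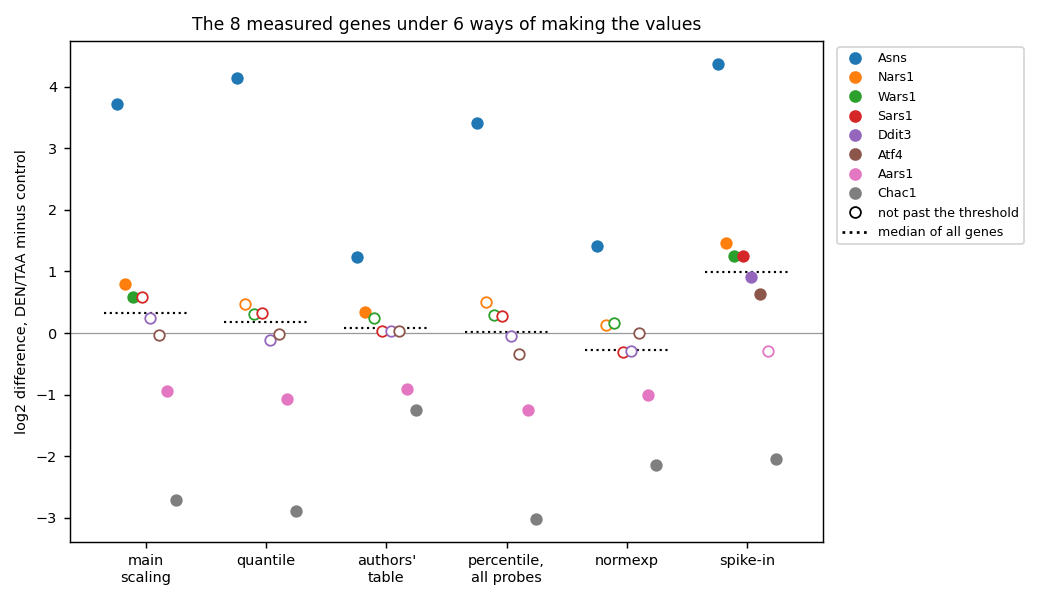
Log2 differences (DEN/TAA minus control) of the 8 measured genes under 6 ways of making the values, with the median of all genes tested dotted. Filled points passed the threshold. Asns is highest and Chac1 lowest under each, while the genes near the median change their call.

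The plot of the 8 genes over 6 scalings shows which of these differences depended on how arrays were brought to 1 level. Asns was called higher and Chac1 lower under all 6, and Aars1 lower under 5. Nars1 was called under 3, Wars1 under 2, and Sars1, Ddit3 and Atf4 under spike-in scaling alone. That scaling called 4451 genes higher and 396 lower, 91.8% of calls as higher against 70.5% in the main scaling, and normexp called 882 higher and 1966 lower, 31.0% as higher. As higher, quantile normalisation called 58.9%, the values made by the authors 60.8% and the percentile over all probes 50.2%.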

How the data were processed

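Liver RNA was measured on Agilent whole-genome rat arrays, 1 per rat. The deposited scanner files hold spot intensity from the scanner software Feature Extraction (version 11.5.1.1 in the headers, 15.5 in the submitters' processing notes). Per the file headers the processed intensity is background-subtracted but not scaled between arrays. The authors' deposited table of log2 values ranked spots as the raw median intensity did (Spearman's rho 1), with column medians of 8.59, and served as an alternative. How it was made is not stated in the labels or headers. Spots flagged as outliers were left out.

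Log2 signals were averaged per probe and scaled to each array's 75th percentile over 6238 probes above background on all 10 arrays. A probe counted as above background when at least 1 unflagged spot was. Genes were named through RefSeq accessions (17502 of 41012 probes, 13832 genes, GRCr8 assembly). Probes were kept when above background on at least 5 arrays and with an unflagged spot on every array. Each gene was represented by its brightest passing probe. The need for unflagged spots left out Slc3a2 and Gbp2, for example. No spot was saturated. limma 3.58.1 in R 4.3.3 (lmFit, eBayes, two-sided, Benjamini-Hochberg over 6861 genes, threshold 0.05) compared the groups. With simulated data on 6861 genes, 200 of them changed, it recovered 64% of genes changed by 1 log2 unit and 93% of those changed by 2. Of its calls there, 4.27% were false. The simulation had independent noise and no dimmer arrays, while 55.2% of genes were called in the data, so these rates need not hold there. The number of arrays limits the precision. Where a group had no array above background, folds are bounds. They are set against the mean of the higher of the probe's own signal and the lowest signal above background on each array. Bounds and floors cover detection only and hold for the main scaling, and other scalings can give smaller differences. The normexp alternative used the median spot and background signals (offset 50), since mean spot signals were not among the columns.

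The genes of the set and all lists were chosen with earlier results of these data known. Named genes were every gene of the set, up to 4 per list and direction with the smallest adjusted p, and 11 fixed genes; cell type marker lists are given by counts. Scans were made per slide, 3 slides each holding both groups. Alternatives were scalings, filters, probe rules, slide and replicate blocks, priors, array weights and leaving out each rat.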

Additional observations from a re-analysis of the deposited data

Results flagged for a closer look

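Within the groups of 5 rats, the highest or lowest rat stood apart from the others by Dixon's gap in 9 of 114 groups examined, where chance gives about 1 in 20. For Atf4, control rat 1 read 0.36, against 0.88 to 1.03 in the other controls. Control rat 5, from the dimmest array, was apart for 5 genes: it was lowest for Lars1 (-5.20, the others -3.73 to -3.39), Eef1e1 (-4.12, the others -3.58 to -3.39), Cth (-0.77, the others 0.62 to 0.87) and Cebpa (-4.99, the others -3.72 to -3.29), and highest for B2m (5.63, the others 5.04 to 5.16). Aimp2 was highest in control rat 1 (-2.52, the others -3.02 to -2.88). Gdf15 was lowest in DEN/TAA rat 3 (-3.19, the others -2.41 to -2.10). Aldh18a1 was lowest in DEN/TAA rat 5 (-5.85, the others -5.35 to -5.27).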

How the results depend on the processing

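Asns, Chac1, Rars1, Cth, Nupr1, Phgdh, Eif4ebp1 and the scaffold genes Aimp1, Aimp2 and Eef1e1 kept direction and call in every alternative that tested them. Of these, Asns passed the filter through DEN/TAA alone. Leaving out each rat in turn gave 2 to 3 genes of the set as higher and 2 as lower, 9 to 10 other ATF4 targets as higher and 4 to 5 as lower, and 2325 to 2679 genes higher and 989 to 1145 lower in all. The other cytosolic synthetases called higher numbered 2 to 4, with 2 without each single DEN/TAA replicate or without control replicate 2. Over these fits Atf4 ranged from -0.15 to 0.031, Znhit2 from -0.088 to 0.038 and Kdsr from -0.065 to 0.13, none of them called.

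Normexp gave 882 genes higher and 1966 lower, 1 gene of the set higher, 3 other ATF4 targets higher and 7 lower, and 1 other cytosolic synthetase higher. It reversed Aldh18a1 (-0.71), Atf4 (0.0038), Ddit3 (-0.28), Eif2ak4 (-0.42), Eif2b1 (-0.27), Farsb (-0.36), Lars1 (-0.0074), Sars1 (-0.31), Slc7a11 (-0.044) and Tap2 (-0.31). Spike-in scaling gave 4451 higher and 396 lower, with 6 genes of the set higher and 1 lower. It reversed Atf4 (0.63), B2m (0.00856), Chac2 (0.11), Eif2ak2 (0.21), Sesn2 (0.42), Shmt2 (0.16), Ubn1 (0.57) and Znhit2 (0.65). The percentile over all probes gave 1611 higher, with 1 gene of the set and 1 other cytosolic synthetase higher, and reversed Ddit3 (-0.055) and Kdsr (-0.24). Quantile normalisation gave 1 gene of the set and 2 other cytosolic synthetases higher, and reversed B2m (0.11), Ddit3 (-0.12), Kdsr (-0.074) and Sesn2 (0.0094). The authors' table gave 1 other cytosolic synthetase higher and reversed Atf4 (0.032) and Eif2ak4 (-0.019). With all 10 arrays above background required, fewer genes were tested, and 1157 were higher and 949 lower, with 1 gene of the set higher and 1 lower, 2 other ATF4 targets and 2 other cytosolic synthetases higher. With no filter 2577 genes were higher (30.8% of calls, against 70.5%) and 5802 lower, with 9 other ATF4 targets lower. That setting also tested genes above background on no array. Further reversals were Kdsr with array weights (-0.0094), with the mean over probes (-0.040) and without the 2 dimmest arrays (-0.013), Atf4 (0.0083) and Znhit2 (0.023) with slide as a block, Gdf15 within slide 2 (-0.084) and Atf4 within slide 3 (0.23). The cause of these moves was not tested, except that fewer or more genes were tested under the filters.

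The replicate number as a block gave 2664 higher and 1122 lower calls over all genes, with 3 genes of the set higher and 2 lower and 9 other ATF4 targets higher. It ended the calls for Chac2 (adjusted p = 0.0595), Gdf15 (0.0602) and Tap2 (0.0503). Deviations of same-numbered rats correlated at 0.086, 0.10, 0.21, -0.22 and 0.11, not all above 0.1, so the numbers were not taken as pairs. Numbers 1, 2, 3 and 5 shared a slide between groups and number 4 did not, and 4 of 10 rats correlated best with their own number. The 2 alternatives added after the data had been seen left out the 2 dimmest arrays or raised signals to the detection floor. The dimness of the control arrays limits what can be said of genes not above background there.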

Other observations

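Relatives of the genes in the set, and partners of their products, also differed in direction. Of 8 listed, 6 were tested, 1 was higher and 2 lower, 50% against the 55.2% of all genes. Cebpd, a C/EBP factor of the acute phase, rose by 1.38 (SE 0.22, limma adjusted p = 0.000296). Cebpa, the C/EBP factor of mature hepatocytes, fell by 1.75 (SE 0.30, adjusted p = 0.000479), above background on 4 of 5 arrays in either group. Chac2, the constitutive relative of Chac1, fell by 0.56 (adjusted p = 0.0436), a call held in 9 of 23 alternatives. Trib1, a relative of Trib3 named after its value was seen, was not called (-1.23, SE 0.78, adjusted p = 0.202), and was above background in 3 of 5 DEN/TAA rats and 2 of 5 control rats.

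Of 14 genes known to be induced by interferon-gamma, 9 were tested, of which 4 were higher and 1 lower (55.6%, against 55.2% of all genes), beside the uncertain difference of Wars1. Cxcl10 and Cxcl9, chemokines that draw T cells, rose by 3.75 and 2.25 (adjusted p = 2.18e-06 and 7.37e-05), with Cxcl10 above background on 1 of 5 control arrays. Icam1, an adhesion molecule, rose by 0.81 (adjusted p = 0.00265), and Tap2, a peptide transporter, by 0.85 (adjusted p = 0.0459), a call held in 6 of 23 alternatives. B2m, the light chain of class I molecules, fell by 0.65 (adjusted p = 0.00511) with all 4 of its probes lower, although it read 0.11 with quantile normalisation and 0.01 with spike-in scaling.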
